A study of Mus musculus with 5 samples.

Results

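Promoter windows whose strongest nucleosome signals to the left and to the right of the transcription start site (TSS) lie at least 440 bp apart were described here in mouse leukaemia cells with and without PHF6. They are 442 of 36447 distinct TSS windows (1.21%), and 18% of the 2452 windows that carry nucleosome signal on both flanks. A window reaches 1000 bp to the left and to the right of its TSS and is cut into 200 bins of 10 bp. The signal of each library was divided by its mean, averaged within each genotype, and the genotype averages were then averaged with equal weight; this profile is called M. A both-flank window had a mean M of 1.3 or more and a trough (within 50 bp of the TSS) lower than the mean of its near flanks (50 to 200 bp). That mean was also no lower than the signal of the outermost bins, and neither near flank reached 2 times the other. Members were the both-flank windows in which the highest bin of M within 400 bp to the left and the highest bin within 400 bp to the right were 440 bp or more apart. The other 2010 both-flank windows, with highest bins closer together, serve as the comparison. The level and the shape of M thus chose the members, and are given below as a description with no test.

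The signal comes from ATAC-seq, in which the Tn5 transposase cuts accessible DNA and the lengths of the fragments report where nucleosomes lie. The cells are pre-B cell leukaemia cells of C57BL/6J mice that overexpress BCR-ABL1, an oncogenic tyrosine kinase fusion, and are p19 null, which removes a tumour suppressor that restrains p53 degradation. Both groups share this background: 2 libraries (replicates 1 and 3) are labelled wild type, and 3 libraries (replicates 1, 2 and 3) are from PHF6 null cells, called knockout here. PHF6, found in the nucleus and nucleolus, carries extended PHD-type zinc finger domains. The replicates are named biological in the design text; no label ties them to separate cultures, clones or animals, so p-values measure only the spread between these libraries. The rows of the files carry no gene name, coordinate or strand, so no gene or sequence is given, neither the cell type nor the loss of PHF6 was checked against a gene, and windows are cited by row number. Left and right are the sides of a window as deposited, and cannot be tied here to the direction of transcription.

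As background, a nucleosome is DNA wrapped around a histone octamer. Active promoters usually keep a stretch without stable nucleosomes at the TSS, held open by transcription factors and chromatin remodelling enzymes. The nucleosome just downstream, called the +1 nucleosome, and the one just upstream, the -1 nucleosome, border this stretch. Further nucleosomes follow at regular steps, and are usually less well positioned the farther they lie from the TSS.

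In the members the highest bins were far apart, but the stretch between them was in most cases not empty. In M, 417 of the 442 members (94.3%) had at least 1 further maximum between the highest bins that reached 0.5 of the smaller of them and stood out by 0.2 of it. There was 1 such maximum in 267 members, 2 in 112, 3 or more in 38 and none in 25. The further maxima lay on 1 side of the TSS in 329 members and on both sides in 88. In 164 members (37.1%) the highest bin of this interior, with 70 bp next to each highest bin left out, was at or above the smaller highest bin. The members are therefore called wide-spaced windows here, and not windows with a wide depleted region, since in M a depleted stretch of that width was found in few of them. In the comparison windows 461 of 2010 (22.9%) had a further maximum, but a shorter interval also leaves less room for one. M also chose the windows and adds up the maxima of different libraries. In single libraries a further maximum was present in 51.1% to 65.6% of the wide-spaced and 26.3% to 40.3% of the comparison windows. With windows chosen on 1 library of each genotype, the average of the other libraries gave 51.8% to 58.7% and 29.6% to 33.8%.

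**Figure D1:**
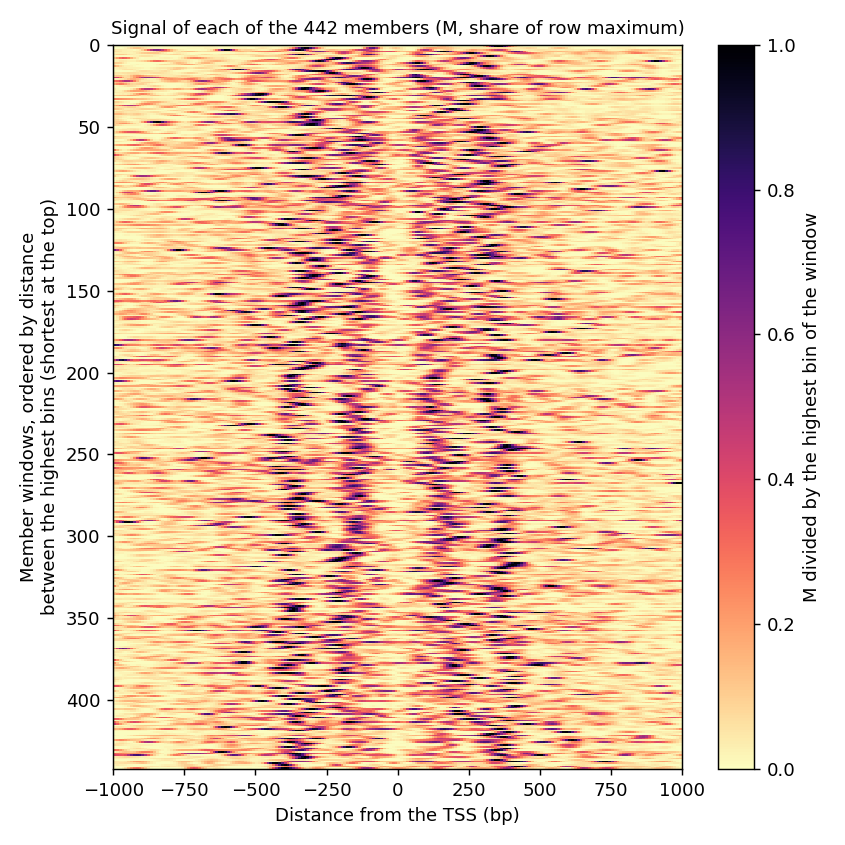
Signal M of each of the 442 wide-spaced windows as a share of the window's highest bin (colour), against the distance from the TSS in bp; windows are ordered from the shortest distance between the highest bins (440 bp, top) to the longest (780 bp, bottom). Dark bins gather at 4 distances, 2 on either side of a pale centre, and the pale centre does not widen from top to bottom.

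Measured in M between the maxima nearest the TSS, the wide-spaced windows were close to the comparison windows. The rule asks both sets for near flanks (50 to 200 bp) above the trough, so this likeness is in part set by the choice. This innermost spacing had a median of 260 bp in the wide-spaced windows (quartiles 210 and 320 bp) and of 280 bp in the comparison windows (quartiles 210 and 310 bp). The stretch around its lowest bin in which M stayed under 0.5 of the smaller innermost maximum had a median width of 170 bp in the wide-spaced and 200 bp in the comparison windows. This order did not hold in single libraries. There the median innermost spacing was 280 to 325 bp in the wide-spaced and 260 to 300 bp in the comparison windows. The low stretch had medians of 205 to 240 bp and 190 to 220 bp. Across the wide-spaced windows the distance between the highest bins had a median of 500 bp and ran from 440 to 780 bp. The innermost spacing did not follow it: windows with highest bins 440 to 490 bp apart (196 windows) had a median innermost spacing of 250 bp, those at 500 to 590 bp (196 windows) 270 bp, and those at 600 bp or more (50 windows) 270 bp. An innermost spacing of 440 bp or more was found in 35 wide-spaced windows (7.92%).

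**Figure D2:**
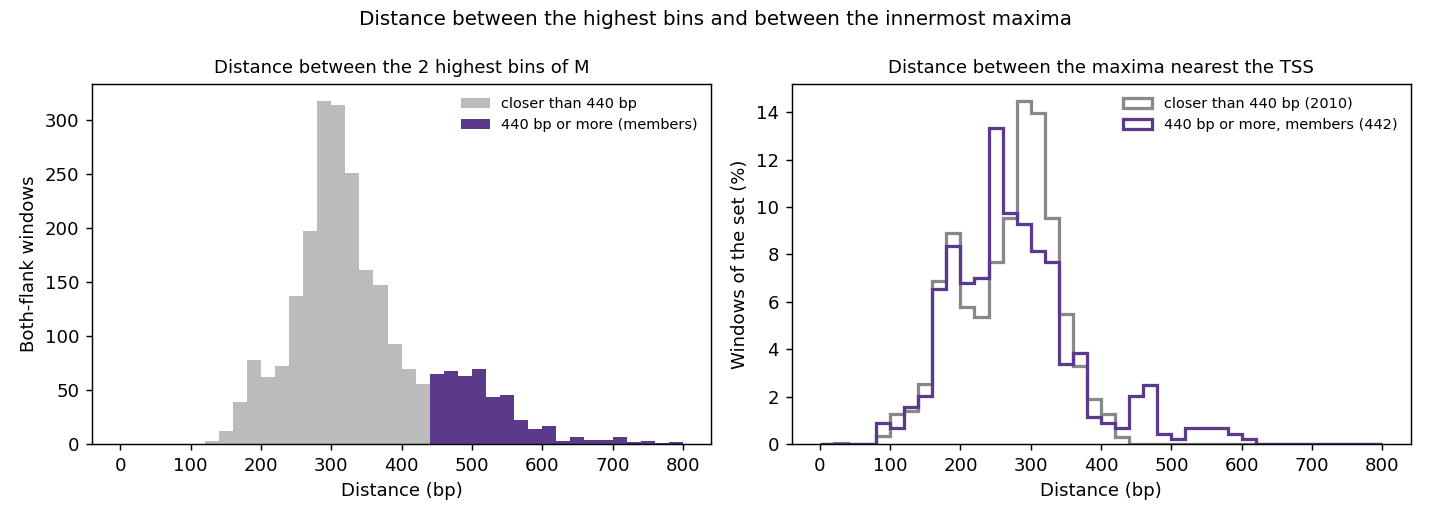
Left, number of both-flank windows (vertical axis) by the distance in bp between their 2 highest bins of M (horizontal axis, 20 bp steps), with the 442 wide-spaced windows in colour; right, share of each set in percent by the distance between the maxima nearest the TSS. The sets are separate on the left by construction and cover much the same range on the right, with medians of 260 bp (wide-spaced) and 280 bp (comparison).

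The highest bins of a wide-spaced window were placed unevenly about the TSS. The nearer of them lay at a median of 175 bp from the TSS and the farther at a median of 345 bp. In 297 windows (67.2%) 1 highest bin lay within 200 bp and the other beyond it, and in 145 (32.8%) both lay beyond 200 bp. The farther bin was on the left in 218 windows and on the right in 221 (the bins were equally far in the rest). In 68 windows a highest bin fell in the last bin searched, so the true maximum may lie farther out. At the threshold itself, 28 windows at 440 bp (just inside) and 28 at 430 bp (just outside) had like values: further maxima were present in 92.9% of each, and the median innermost spacing was 230 and 240 bp. The lowest mean M inside was 1.31, and the highest outside among windows meeting every other condition was 1.29.

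The 25 wide-spaced windows without a further maximum had a median innermost spacing of 470 bp, a low stretch of 380 bp, and highest bins at medians of 215 and 265 bp from the TSS. The interior level is the mean M between the highest bins, with 70 bp next to each left out, divided by the smaller highest bin. Of all members, the windows in rows 3874, 9655 and 3215 had the lowest interior level, at 0.0423, 0.0425 and 0.0610. In the window in row 3874 the trough was listed at 0 in each of the 5 libraries. Its left highest bin lay at -185 and -225 bp in wild type, and at -195, -205 and -225 bp in knockout replicates 1, 2 and 3, and its right highest bin between 215 and 245 bp. The distance between the highest bins was 410 and 460 bp in wild type and 440 bp in every knockout library, so only wild-type replicate 1 lay under the 440 bp of the rule. In the window in row 9655 the distance was 420 and 590 bp in wild type, against 440, 450 and 450 bp in knockout. Its trough had a relative signal of 0.259 and 2.51 in wild type and was listed at 0 in the 3 knockout libraries. Row 3215 was less uniform: its trough was listed at 0 in knockout replicates 1 and 2, and held 3.11 in knockout replicate 3 and 0.490 and 2.52 in wild type.

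At the other end, the windows in rows 34255 and 35646 had the longest distance in M, 780 bp, and neither was as wide in every library. In row 34255 the distance in single libraries was 400 and 540 bp in wild type, against 790, 240 and 770 bp in knockout replicates 1, 2 and 3. In row 35646 it was 310 and 400 bp in wild type, against 640, 770 and 630 bp in knockout. Row 35646 had 5 further maxima between its highest bins in M. The window in row 10506, at 760 bp in M, was led in 4 libraries by a bin at -395 bp with a relative signal of 49.0 to 60.6, at the border of the search. The windows with the highest mean M were those in rows 1522, 16285 and 2334, with mean M of 6.88, 5.36 and 5.0, and highest bins 550, 550 and 490 bp apart. In row 1522 the left highest bin lay between -185 and -155 bp in the 5 libraries, while the right one lay at 135 bp in knockout replicate 1 and at 375 to 395 bp in the other 4. Its trough was nearly empty, at 0 in both wild-type libraries and at 0.0284 to 0.0381 in knockout.

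How far the wide spacing held in single libraries was examined next. Of the 442 members, 44 had highest bins 440 bp or more apart in each of the 5 libraries, 123 in 4, 154 in 3, 87 in 2, 33 in 1 and 1 in none. When the rule was applied to 1 wild-type and 1 knockout library (6 choices) it took 380 to 425 windows, of which 33.7% to 41.7% were among the 442; these made up 31.4% to 38.9% of the 442. In the average of the other 3 libraries, which had no part in the choice, the chosen windows had a median distance of 400 to 440 bp. The both-flank windows chosen as closer-spaced by the same 2 libraries had a median of 310 to 320 bp there. A distance of 440 bp or more was found again in 43.5% to 51.8% of the wide-spaced and in 12.5% to 16.6% of the closer-spaced windows. The median innermost spacing in the libraries not used was 260 to 280 bp for the wide-spaced and 280 bp for the closer-spaced windows in each choice. Leaving out 1 library, the rule took 411 to 447 windows. The share of the 442 found again was 48.2% without wild-type replicate 3, 51.8% without wild-type replicate 1, and 64.7% to 68.6% without a knockout library. Membership thus depended on single libraries, most of all on the wild-type libraries, each of which carries more weight in M.

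The average profile of the wide-spaced windows had 2 maxima of like height on each side of the TSS in each library. The inner left maximum lay at -155 bp in both wild-type libraries and at -125, -135 and -135 bp in knockout replicates 1, 2 and 3. The inner right maximum lay at 135 and 155 bp in wild type, and at 145, 145 and 185 bp in knockout. The outer maxima lay at -355 bp in both wild-type libraries and at -345, -355 and -345 bp in knockout on the left, and between 355 and 365 bp on the right in all 5 libraries. On the left all 3 knockout libraries were nearer the TSS than both wild-type libraries at the inner maximum, whereas on the right the genotypes overlapped; neither shift was tested. The heights at the outer left maximum were 4.72 and 3.87 in wild type, against 4.82, 6.02 and 5.35 in knockout. In the comparison windows a single high maximum stood on each side, between -165 and -155 bp and between 145 and 155 bp, with heights of 6.33 to 7.57 in wild type, against 8.02 to 9.80 in knockout.

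**Figure D3:**
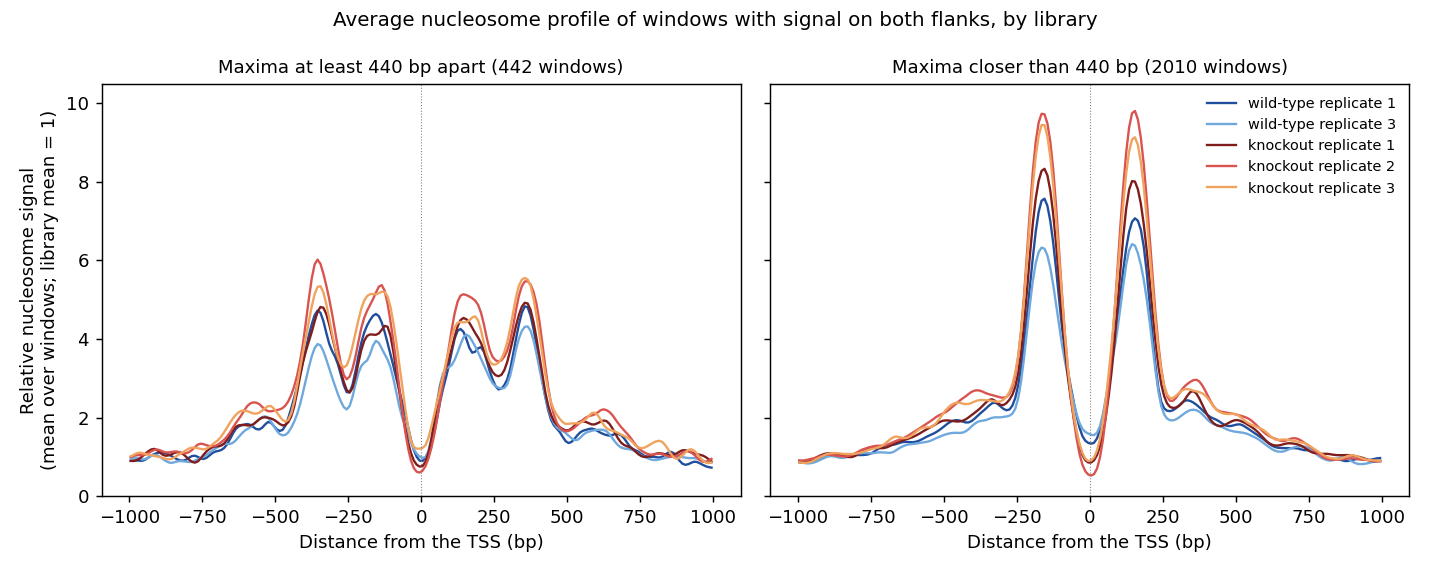
Mean relative nucleosome signal (vertical axis, library mean = 1) against distance from the TSS in bp for each of the 5 libraries, in the 442 wide-spaced windows (left) and the 2010 comparison windows (right). The wide-spaced windows show an inner maximum (125 to 185 bp from the TSS) and an outer one (345 to 365 bp) on both sides in every library, and the comparison windows a single higher maximum near 155 bp.

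The shoulders of the window (200 to 400 bp) carried as much signal as the near flanks in the wide-spaced windows. The ratio of shoulders to near flanks was 1.01 and 0.964 in wild type, against 1.02, 1.04 and 1.02 in knockout replicates 1, 2 and 3. In the comparison windows this ratio was 0.482 and 0.488 in wild type, against 0.483, 0.468 and 0.469 in knockout. The rule sets much of this gap between the sets of windows, since it asks for a highest bin far from the TSS. The mean level of the whole window was close in the sets, with a median mean M of 2.16 in wide-spaced and 2.17 in comparison windows. Of the 364 windows in the top 1% by signal, 10 were wide-spaced and 77 were comparison windows.

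The libraries differed in how many bins held signal. In the wide-spaced windows empty bins (signal of 0) were 22.4% and 21.9% in wild type, against 20.5%, 24.1% and 33.1% in knockout replicates 1, 2 and 3. The deposited signal in these windows averaged 1.19 and 1.12 in wild type, 1.40 and 1.47 in knockout replicates 1 and 2, and 0.825 in knockout replicate 3. Read counts are not part of these matrices; sequencing depth is therefore unknown here, and values carry no counting interval.

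The next comparison asked how the wide-spaced windows differed between PHF6 knockout and wild type. The rule weights the genotypes equally and does not use their difference, but a window can pass it through the signal of 1 genotype. On the relative scale the signal of the whole window was 2.18 and 2.03 in wild type, against 2.28, 2.57 and 2.56 in knockout replicates 1, 2 and 3. The means were 2.11 ± 0.109 (SD, n = 2) and 2.47 ± 0.162 (SD, n = 3), and the 3 knockout libraries were all above the wild-type ones. Near flanks had 3.64 and 3.36 in wild type, against 3.75, 4.24 and 4.24 in knockout. Shoulders had 3.68 and 3.24 in wild type, against 3.83, 4.42 and 4.33 in knockout. The genotypes did not overlap in either region, and the knockout to wild-type ratios were 1.16 for the near flanks and 1.21 for the shoulders. Without scaling they did overlap: the deposited near-flank signal was 1.98 and 1.85 in wild type, against 2.30, 2.43 and 1.37 in knockout. In bulk data, fewer cells with a nucleosome at a place and a lower occupancy in each cell cannot be told apart.

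The mean trough signal of the wide-spaced windows overlapped between the genotypes, while the share of windows with an empty trough did not. The mean relative signal of the trough was 1.23 and 1.28 in wild type, against 1.10, 0.926 and 1.47 in knockout replicates 1, 2 and 3, so that knockout replicate 3 was the highest of all libraries and knockout replicate 2 the lowest. The difference of the means, knockout minus wild type, was -0.0846; without knockout replicate 2 it was 0.0357, and without knockout replicate 3 it was -0.238. In the comparison windows the trough held 1.60 and 1.75 in wild type, against 1.14, 0.874 and 1.24 in knockout, with each knockout library below both wild-type libraries (knockout to wild-type ratio 0.648, against 0.932 in the wide-spaced windows). Medians over the comparison windows also put both wild-type libraries highest (0.663 and 0.791, against 0.332, 0.119 and 0.30 in knockout). In the wide-spaced windows the medians overlapped: 0.542 and 0.736 in wild type, against 0.450, 0.222 and 0.587 in knockout. Windows whose trough was 0 throughout made up 7.01% and 7.24% of the wide-spaced windows in wild type, against 8.37%, 18.6% and 12.4% in knockout, so that each knockout library was above both wild-type ones, knockout replicate 1 by the least. The comparison windows went the same way, with 6.82% and 5.77% in wild type, against 9.10%, 16.4% and 13.2% in knockout. Knockout replicates 2 and 3 also had the most empty bins over the whole wide-spaced windows (24.1% and 33.1%), and the part of this was not tested. The ratio of near flanks to trough was 2.97 and 2.63 in wild type, against 3.40, 4.58 and 2.88 in knockout for the wide-spaced windows, and the genotypes overlapped. For the comparison windows it was 3.43 and 2.79 in wild type, against 5.22, 8.0 and 5.44 in knockout, with no overlap. Whether the knockout to wild-type difference itself differed between the sets of windows was not tested.

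**Figure D4:**
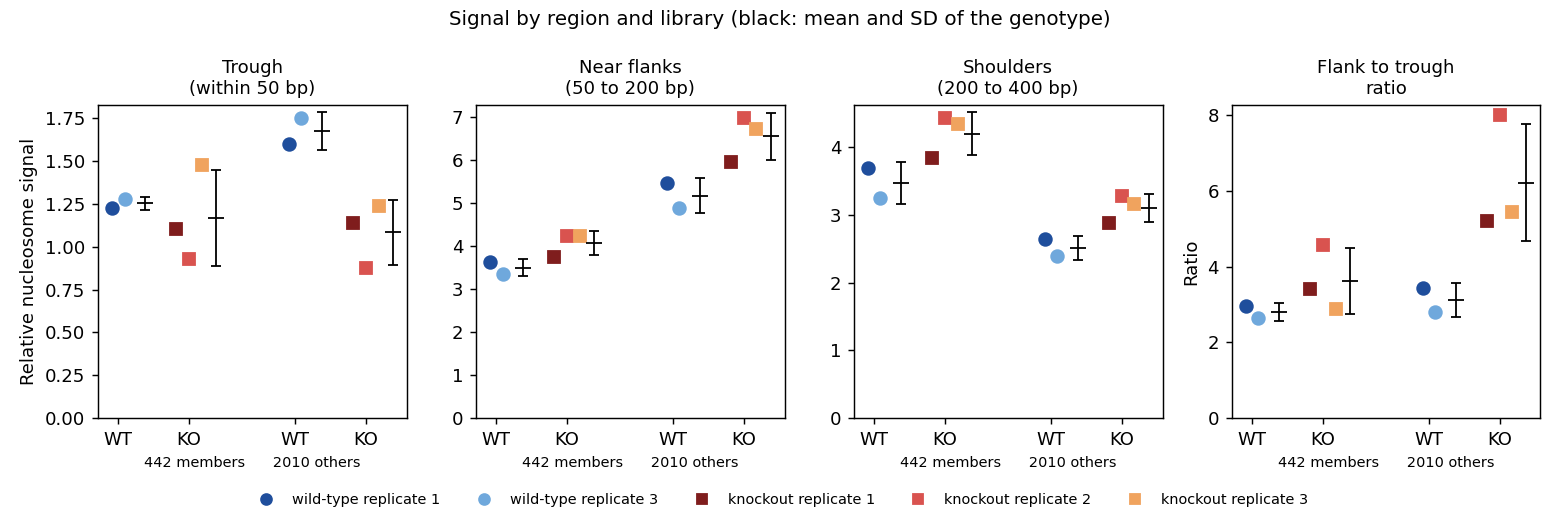
Relative nucleosome signal (first 3 panels) and the flank to trough ratio (last panel) in wild-type (WT, circles) and knockout (KO, squares) libraries for the 442 wide-spaced and the 2010 comparison windows; each point is a library, and the black bars give the mean and SD of the genotype. At the trough the genotypes overlap in the wide-spaced windows (knockout 0.926 to 1.47) and separate in the comparison windows (knockout 0.874 to 1.24, wild type 1.60 and 1.75).

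Window by window, knockout was compared with wild type by limma on log2(relative signal + 0.1) over all 36447 windows (p-values two-sided and adjusted by Benjamini-Hochberg over every window tested). No wide-spaced window passed an adjusted p of 0.05 for the whole window, near flanks, shoulders, trough, either contrast to the trough, or the distance between the highest bins, and the share of all windows called by limma was 0% in each of these 7 comparisons. At an unadjusted p under 0.05 there were 63 wide-spaced windows for the whole window, of which 54 were higher and 9 lower in knockout. Over all windows 4.54% were higher and 6.68% lower by that measure, against 12.2% and 2.04% of the wide-spaced windows. The comparison windows gave 16.5% and 2.34%, so the lean towards knockout was at least as large there. Without scaling the split was 4 higher and 4 lower (0.905% each), beside 0.661% and 6.04% of all windows, and the median log2 difference was 0.04, beside -0.29 over all windows. After quantile normalization, which forces a common distribution on the libraries, it was 33 and 29 (7.47% and 6.56%), beside 4.98% and 4.4% of all windows. For the near flanks 26 wide-spaced windows were higher and 9 lower at an unadjusted p under 0.05, beside 3.39% and 4.42% of all windows. For the shoulders there were 41 and 6, beside 3.10% and 4.05%. At the trough, the depleted centre, there were 13 and 16, beside 1.28% and 5.70%. The near flank to trough contrast gave 30 and 9 (6.79% and 2.04%, beside 4.92% and 3.16% of all windows). The shoulder to trough contrast gave 29 and 8 (6.56% and 1.81%, beside 4.89% and 2.57%). In the comparison windows these shares were 13.1% and 1.34%, and 11.1% and 1.44%. After quantile normalization the near flank contrast gave 8 and 19 wide-spaced windows (all windows 3.48% and 3.03%). The shoulder contrast then gave 12 and 14 (all windows 3.45% and 2.41%), so neither lean towards knockout held. The median log2 difference of the wide-spaced windows was 0.21 for the whole window, 0.20 for the near flanks, 0.26 for the shoulders and -0.22 for the trough, beside -0.21, -0.17, -0.20 and -0.28 over all windows. The comparison windows had 0.19, 0.30, 0.24 and -0.68. Quantile normalization brought the medians over all windows to between -0.01 and 0.02 and those of the wide-spaced windows to 0.03, 0.07, 0.02 and 0.43, so the sign at the trough turned.

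Counts of windows in which the genotypes did not overlap followed the same order. For the whole window the 3 knockout values exceeded the 2 wild-type values in 113 wide-spaced windows (25.6%, against 9.69% of all windows) and were below them in 29 (6.56%, against 20.4%). For the shoulders the counts were 89 above (20.1%, against 9.24%) and 30 below (6.79%, against 14.0%). For the near flanks they were 70 above (15.8%, against 9.61%) and 34 below (7.69%, against 13.7%). In the comparison windows 26.6% lay above and 6.57% below for the whole window, so the excess over all windows was not particular to the wide-spaced windows. There 25.3% lay above for the near flanks and 19.7% for the shoulders, and 21.1% lay below for the trough. All these counts are on the relative scale. For the trough 33 wide-spaced windows lay above (7.47%, against 4.77%) and 68 below (15.4%, against 14.5%), a share below that is near the background. For the near flank to trough contrast 73 lay above (16.5%, against 11.7%) and 30 below (6.79%, against 9.53%). For the shoulder to trough contrast 72 lay above (16.3%, against 12.4%) and 28 below (6.33%, against 9.51%). The comparison windows had larger shares above for both contrasts. There 24.3% lay above and 5.87% below for the near flank contrast, and 22.8% and 5.47% for the shoulder contrast.

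The windows with the smallest p for the whole window were chosen on these same values, and none passed over all windows. In row 17392 the relative signal was 2.66 and 3.73 in wild type, against 1.13, 1.09 and 1.01 in knockout. On the log2 scale knockout minus wild type was -1.47 (SE 0.30; limma adjusted p = 0.162, with 0.0174 to 0.855 over the settings tried). Its shoulders held 5.17 and 6.37 in wild type, against 1.04, 2.01 and 1.18 in knockout, so both wild-type libraries lay well above the 3 knockout libraries. It was the only wide-spaced window to pass the threshold after quantile normalization (limma adjusted p = 0.0328). The window in row 14110 went the other way, with 2.96 and 2.5 in wild type, against 6.20, 5.46 and 6.33 in knockout (log2 difference 1.11, SE 0.26; limma adjusted p = 0.201, with 0.0107 to 0.855 over the settings). In the window in row 3874, the one with the lowest interior level, the whole-window signal was 1.98 and 1.59 in wild type, against 3.34, 3.82 and 4.80 in knockout (limma adjusted p = 0.221). Its shoulders held 4.59 and 4.02 in wild type, against 11.9, 11.4 and 13.4 in knockout, while the trough was listed at 0 throughout. Row 34885 had 1.05 and 0.885 in wild type, against 1.90, 2.34 and 2.67 in knockout (limma adjusted p = 0.234). Lower in knockout with larger p were the windows in rows 4958 (3.5 and 3.55 against 2.31, 1.77 and 2.22; limma adjusted p = 0.369) and 35216 (3.22 and 2.49 against 1.87, 0.979 and 1.93; limma adjusted p = 0.379).

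Without the 25% of windows of lowest mean, 5 wide-spaced windows passed for the whole window, 4 of them higher and 1 lower in knockout, where 0.545% of all windows tested were called higher and 0.0915% lower. They were the windows in rows 14110, 17392, 7204, 11794 and 14145. The window in row 7204 had 1.28 and 2.46 in wild type, against 3.38, 5.47 and 4.02 in knockout (limma adjusted p = 0.0309 in that setting, with 0.855 the highest over the settings). Row 11794 had 3.21 and 2.70 against 4.92, 6.78 and 7.10. Row 14145 had 2.85 and 2.80 against 6.02, 7.83 and 4.31, and its highest bins were 500 to 540 bp apart in all 5 libraries. For the shoulders 3 windows passed in the same setting, all higher in knockout, where 0.293% of all windows were called higher and 0.0110% lower. These were the windows in rows 9412 (0.113 and 1.38 in wild type against 2.49, 5.70 and 4.80 in knockout), 9838 (2.39 and 1.01 against 6.82, 6.47 and 5.85) and 11582 (2.63 and 1.14 against 5.63, 9.36 and 8.0). In each of them the lowest knockout library exceeded the highest wild-type library.

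The windows with the smallest p for the shoulder to trough contrast had unlike trough values in the genotypes, in both directions. In the windows in rows 6965, 11744 and 30925 the trough held signal in wild type and next to none in knockout. The trough of row 11744 held 1.23 and 2.95 in wild type and was listed at 0 in the 3 knockout libraries, while its shoulders held 2.35 and 2.37 in wild type, against 3.32, 2.46 and 5.97 in knockout. In row 30925 the trough held 0.506 and 0.758 in wild type and was listed at 0 in knockout; this window had no further maximum between highest bins 500 bp apart. The reverse was seen in rows 33317, 12250 and 4083. The trough of row 33317 was listed at 0 in both wild-type libraries and held 2.47, 5.83 and 5.80 in knockout replicates 1, 2 and 3. In row 12250 it held 0.000257 and 0.0238 in wild type, against 0.726, 1.11 and 3.61 in knockout. In row 4083 it held 0.000814 in wild-type replicate 1, was listed at 0 in wild-type replicate 3, and held 0.980, 1.53 and 0.941 in knockout. The log2 differences of the shoulder to trough contrast for these 6 windows ran from 3.36 to 4.95 and from -4.20 to -3.39, and limma's adjusted p was 0.653 for each; where a trough is at 0 the size depends on the pseudocount.

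**Figure D5:**
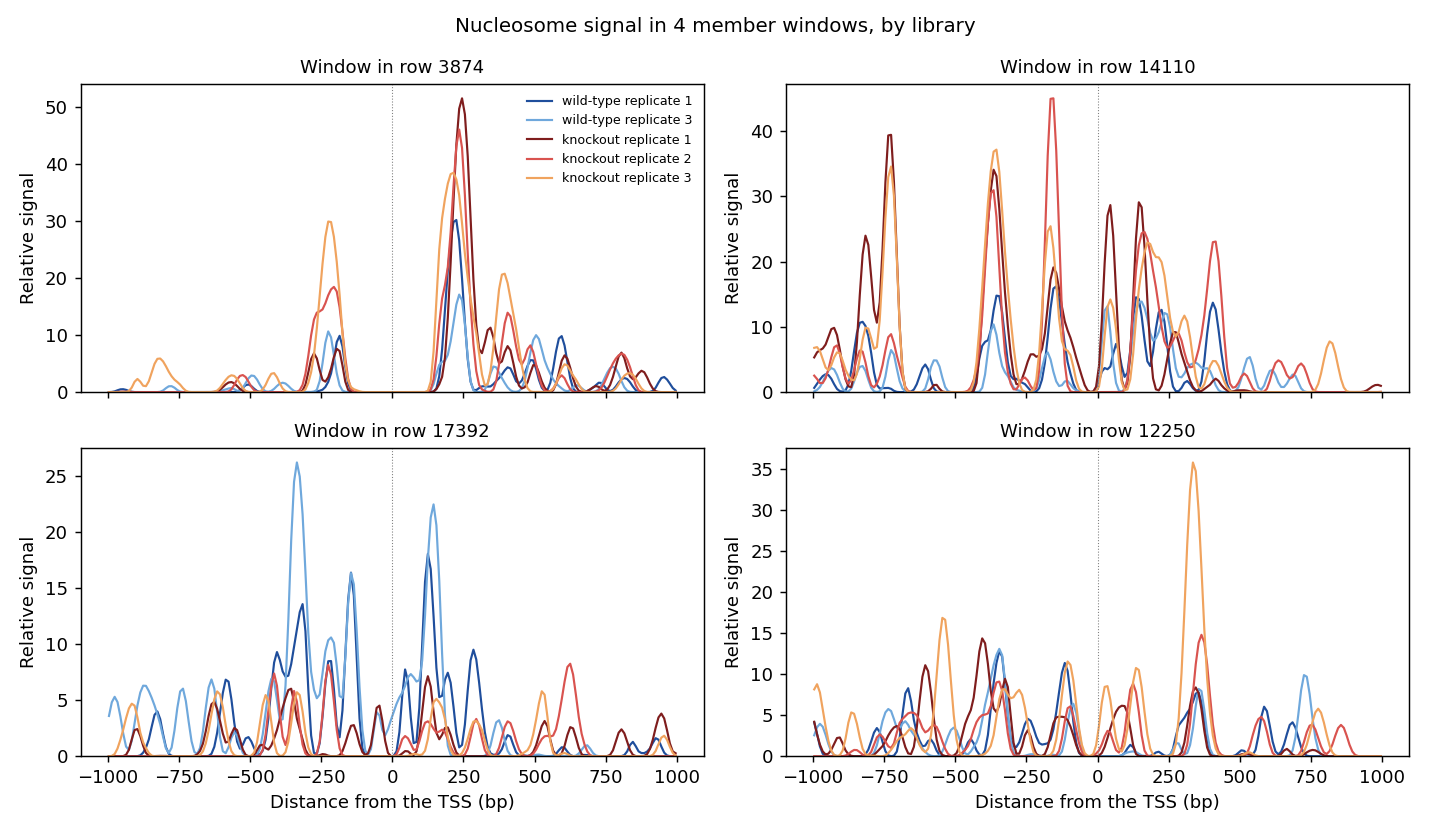
Relative nucleosome signal (vertical axes, scaled separately) against distance from the TSS in bp in 4 wide-spaced windows, with a line for each library. Row 3874 is empty around the TSS (trough at 0) between highest bins 450 bp apart, row 14110 is higher in the 3 knockout libraries, row 17392 is higher in both wild-type libraries, and row 12250 holds signal within 50 bp of the TSS in knockout (0.726 to 3.61) and next to none in wild type.

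The last comparison asked whether the distance between the highest bins of each library differed without PHF6. The median distance in the wide-spaced windows was 465 and 470 bp in wild type, against 470, 480 and 460 bp in knockout replicates 1, 2 and 3, so the genotypes overlapped. Limma on the distance in bp took 16284 windows with signal on both sides in every library, of which 438 were wide-spaced. The median difference was 1.67 bp in the wide-spaced windows and 3.33 bp over all. In the wide-spaced windows it was -15 bp without wild-type replicate 1 and -8.33 bp without wild-type replicate 3. Without any single knockout library it was 0 bp, so its sign depended on the libraries used. With all libraries, 20 windows were wider and 9 narrower at an unadjusted p under 0.05, beside 3.97% and 3.62% of all. All 3 knockout libraries were wider than both wild-type libraries in 50 wide-spaced windows (11.4%, against 10.2% of all) and narrower in 38 (8.68%, against 9.72%), shares near the background. The innermost spacing in single libraries had a median of 280 bp in both wild-type libraries and 290, 325 and 300 bp in knockout. The low stretch had a median width of 210 and 205 bp in wild type, against 220, 240 and 220 bp in knockout. A further maximum between the highest bins was present in 64.9% and 65.6% of the wide-spaced windows in wild type and in 58.8%, 51.1% and 53.0% in knockout. For these 3 measures the genotypes did not overlap. They did not overlap in the comparison windows either, where the innermost spacing was 270 and 260 bp in wild type, against 290, 300 and 290 bp in knockout. Empty bins were most frequent in knockout replicates 3 (33.1%) and 2 (24.1%) and least in knockout replicate 1 (20.5%); their part in these 3 measures was not tested.

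In the windows with the smallest p for the distance, the genotypes lay much farther apart than these medians. The distance in M also chose the members, and each of these windows reached 440 bp in the libraries of 1 genotype only. Their contrast between the genotypes is thus in part set by the choice, and is given as a description. In the window in row 1124 the distance was 280 and 240 bp in wild type, against 580, 730 and 720 bp in knockout, in row 361 it was 200 bp in both wild-type libraries and 480, 670 and 680 bp in knockout, and in row 2524 it was 230 and 220 bp against 530, 550 and 640 bp. In row 361 the right highest bin lay at 55 and 65 bp in wild type, and at 345, 335 and 355 bp in knockout. Its trough held 3.07 and 3.32 in wild type, against 0.187, 0.000306 and 1.22 in knockout, so signal close to the TSS led on the right in both wild-type libraries and in no knockout library. The opposite was seen in row 11291, where the right highest bin lay at 345 and 335 bp in wild type, and at 75, 55 and 15 bp in knockout. The trough of row 11291 held 0.981 and 1.55 in wild type, against 7.58, 6.68 and 7.73 in knockout. In row 12773 the distance was 490 and 440 bp against 140, 250 and 220 bp, and in row 10844 it was 460 bp in both wild-type libraries against 150, 190 and 290 bp. For all 6 of these windows limma's adjusted p for the distance was 0.543, with 0.474 to 0.808 over the settings tried, so none passed over all windows.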

How the data were processed

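Per the file names, the deposited values are NucleoATAC nucleosome signal, which the authors binned at 10 bp around TSSs (37310 rows, 200 columns, 1 file per library). Bowtie2, MACS2 and the build mm9 stand in the submitters' processing notes; for versions, NucleoATAC settings and the scaling between libraries, none was given in the sources used here. Rows without signal (818) and repeated rows (45) were left out. The members were chosen on signal divided by each matrix's mean over all rows; other values use signal divided by the mean over distinct windows. Maxima were found with scipy 1.17.1 (Python 3.11.15), and differences between genotypes were fitted with limma 3.58.1 (R 4.3.3; eBayes with trend; pseudocount 0.1; threshold 0.05), tested on simulated data. Means over members carry no p. The members, measures and comparison windows were chosen with earlier results of these data known. Named were the 3 windows with the highest mean M, the longest distance and the lowest interior level, the 3 with the smallest p in each direction for the whole window, the shoulder to trough contrast and the distance, and members past the threshold in a planned setting where these were 5 or fewer. Alternatives were the pseudocount, scaling, quantile normalization, a filter on low windows, a replicate block, a running mean, other distances and leaving out each library.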

Additional observations from a re-analysis of the deposited data

How the results depend on the processing

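The number of wide-spaced windows called by limma was 0 in each comparison and moved as follows, with the cause not tested: for the whole window to 1 with quantile normalization (lower, beside 0.0165% of all windows) and 5 without the 25% of windows of lowest mean, and for the shoulders to 3 without them. Leaving out 1 library gave 0 to 2 for the near flanks (windows in rows 5235 and 18951) and 0 to 2 for the shoulders (windows in rows 18085 and 20374), all higher and all without wild-type replicate 1, where 0.0466% and 0.0302% of all windows were called higher and 2.40% and 1.62% lower. For the trough it gave 0 to 21, all lower, where 21 (4.75%, beside 10.1% of all windows) came without the first wild-type library and 16 (3.62%, beside 8.82%) without the other; these fits take the spread of the knockout libraries for the single wild-type one. The other comparisons stayed at 0 in the settings run. With the replicate block the count was 0 in all 7 comparisons. Libraries of the same number showed no positive correlation of deviations (-0.0612 for replicate 1 and -0.0376 for replicate 3). The deviations of the 2 wild-type libraries mirror each other by construction, so these values cannot settle whether the libraries were paired. A distance of 500 bp or more gave 246 windows in place of 442, and leaving out 1 library 411 to 447. The difference at the highest near-flank bin was 0.621, 0.114 without scaling, and 0.414 to 0.833 without 1 library. The difference in the flank to trough ratio (0.819) ranged from 0.340 to 1.19 without 1 library, and that of the trough (-0.0846) from -0.238 to 0.0357. Chosen after the data were seen, a height of 0.75 gave 336 members with a further maximum in place of 417, a prominence of 0.5 gave 396 and a running mean 393. For 28 results of named windows, 268 combinations of a result and a setting were run, and no direction changed. These results were chosen for a small p or for passing the threshold in the same data. A stable direction was thus likely from the choice, and is no sign of robustness. The depth is unknown.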

Other observations

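Some TSS windows overlap and share bins with identical values. Such runs can be found only where the distance between the TSSs is a multiple of 10 bp. Each bin of a run also had to exceed a deposited signal of 0.01 in both wild-type libraries. The counts are therefore a lower limit, and overlaps of windows with low signal are harder to find. This bears on the share over all windows below. Of the 442 wide-spaced windows, 25 (5.66%) shared a run of 8 bins with another window, as did 89 of the 2010 comparison windows (4.43%) and 693 of all 36447 windows (1.90%). The 24 pairs that involve a wide-spaced window had TSSs 40 to 1110 bp apart (median 290 bp). In 12 of them the other TSS lay between the highest bins of the wide-spaced window, among them the windows in rows 30925 (the other TSS 120 bp away) and 35646 (250 bp away). In 1 pair both windows were wide-spaced. Counts of windows are therefore not counts of promoters.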
